A study of Homo sapiens with 12 samples.

Results

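The vacuolar ATPase (V-ATPase), the lysosomal platform that recruits mTORC1 and the transcription factors controlled from that platform were followed as 43 genes, taken by symbol from the 57152 genes with values. The V-ATPase gave 9 V0 genes (ATP6V0 symbols), 13 V1 genes (ATP6V1 symbols) and 2 accessory genes (ATP6AP1 and ATP6AP2). The other 19 formed the signalling group: 5 Ragulator genes (LAMTOR1 to LAMTOR5), 4 Rag GTPases (RRAGA to RRAGD), the 3 factors TFEB, TFE3 and MITF, the 3 folliculin complex genes FLCN, FNIP1 and FNIP2, and MTOR, RPTOR, MLST8 and RHEB. TCIRG1, the gene of a further V0 a subunit, lies outside these symbols and was kept apart.

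The cells were A549, a line from a human lung adenocarcinoma, and LB cells, whose labels name A549 cells as their source. Each of 4 groups had 3 libraries. A549 DMSO and LB DMSO received the vehicle, 0.1% DMSO, for 24 h. LB amiodarone received 10 µM amiodarone for 24 h, and LB amiodarone + HPbCD was seeded with 10 mg/ml hydroxypropyl-beta-cyclodextrin 24 h before the same drug treatment. Amiodarone is a cationic amphiphilic antiarrhythmic drug that collects in lysosomes, and HPbCD is a cyclic sugar that binds cholesterol. A549 cells with amiodarone and LB cells with HPbCD alone were not analysed here, so the LB amiodarone + HPbCD group differs from LB DMSO by both agents. Whether the libraries of a group came from separate cultures is not stated, so the p-values reflect library-to-library spread, which may be technical alone.

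The V-ATPase is a rotary proton pump that acidifies lysosomes, endosomes and secretory organelles, lamellar bodies of alveolar cells among them. Its cytosolic V1 sector hydrolyses ATP and its membrane V0 sector carries protons. On the lysosome the pump contacts Ragulator, which anchors the Rag GTPases; with amino acids present, the Rag pair brings mTORC1 to the membrane, where RHEB activates it. Folliculin with FNIP1 or FNIP2 is a GTPase-activating protein for RRAGC and RRAGD, and mTORC1 so recruited phosphorylates TFEB and its relatives and keeps them in the cytosol. In the nucleus these factors bind an E-box, CACGTG and its flanks, near many lysosomal genes (the CLEAR element), RRAGD, FLCN and V-ATPase subunits among their known targets.

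Values were TPM, each gene's length-scaled share of a library's transcripts, so levels of different genes can be compared while depth is unknown. Columns summed to between 999449 and 999632 TPM, and 20966 to 22261 genes were above 0 in a library. Across the 13968 genes tested, libraries of 1 group correlated at r between 0.9846 and 0.9886 on the log2 scale, and libraries of different groups at 0.9427 to 0.9858. In bulk RNA, fewer cells of a type and less RNA per cell cannot be told apart. The LB label was checked against 10 alveolar type II markers: 4 of the 5 tested were higher in LB DMSO than in A549 DMSO, while SFTPA1, SFTPA2, NKX2-1 and SLC34A2 stayed at or under 0.18 TPM in all 12 libraries. With amiodarone against LB DMSO 2 of the 5 tested alveolar markers fell, SFTPB and ABCA3, and all 5 differences were negative (log2 −0.5 to −0.21). On adding HPbCD to amiodarone 1 of the 5 rose and 0 fell (0.08 to 0.31). With amiodarone + HPbCD against LB DMSO 0 passed (−0.42 to 0.04). Of all tested genes, 14.2% rose and 18.2% fell in LB DMSO against A549 DMSO. In the other 3 comparisons, in the order given here, 4.90% and 3.72%, 2.71% and 1.36%, and 10.1% and 7.81% did so. All 5 epithelial markers were lower in LB DMSO than in A549 DMSO, with a summed level of 7253.5 to 7791.1 TPM in A549 DMSO, 2894.0 to 3223.5 in LB DMSO, 2747.9 to 3127.4 in LB amiodarone and 2560.7 to 2955.5 in LB amiodarone + HPbCD, of which the most abundant, KRT8, had means of 3994 TPM in A549 DMSO and 1674 in LB DMSO. The sum hides unlike changes. With amiodarone against LB DMSO 1 of the 5 rose (log2 difference 0.97) and 0 fell. With amiodarone + HPbCD against LB DMSO 1 rose (1.15) and 2 fell, and on adding HPbCD to amiodarone 0 rose and 1 fell. Of the leukocyte markers CD3E and MS4A1 were at 0 in every library and PTPRC reached 0.01 TPM, while CD68, which also codes for a lysosomal membrane protein, rose from a mean of 26.5 TPM in LB DMSO to 83.3 in LB amiodarone + HPbCD. The other 5 leukocyte markers summed to 2.49 to 3.15 TPM in LB DMSO, 1.18 to 2.51 in LB amiodarone and 0.89 to 1.04 in LB amiodarone + HPbCD. Fibroblast markers (2 of 6 tested) summed to 3.77 to 6.11 TPM in A549 DMSO, 11.29 to 11.67 in LB DMSO, 10.78 to 16.23 in LB amiodarone and 6.54 to 7.41 in LB amiodarone + HPbCD, with COL1A2 and DCN at or under 0.15, and the part of these marker genes in the results was not tested. The 5 endothelial markers were all too low to test.

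In all 4 comparisons most members that passed the test rose. With amiodarone and with amiodarone + HPbCD against LB DMSO, RRAGD, RRAGC and FNIP1 had the 3 largest rises of the 38 members with a mean of at least 1 TPM. Of these 38, which were the members tested, 16 rose and 2 fell in LB DMSO against A549 DMSO (limma, Benjamini-Hochberg over all 13968 genes, adjusted p under 0.05), where 14.2% of all tested genes rose and 18.2% fell. With amiodarone against LB DMSO 18 rose and 0 fell, beside 4.90% and 3.72% of all genes. By unadjusted p under 0.05, 23 members were higher and 1 was lower in that comparison, beside 1620 and 1607 of the 13968 genes. With HPbCD added to amiodarone 6 rose and 1 fell against LB amiodarone (2.71% and 1.36% of all genes), and against LB DMSO 23 rose and 1 fell (10.1% and 7.81%). The median log2 difference of the 38 was 0.16, 0.25, 0.12 and 0.37 in that order, beside −0.035, −0.003, −0.008 and −0.018 for all tested genes. Groups did not overlap, with the first group higher, for 17, 25, 16 and 26 members, where 18.6%, 15.2%, 12.9% and 19.0% of all genes did the same. The comparisons share libraries: LB DMSO enters 3 of them and LB amiodarone 2, so their values are set side by side and not counted as separate evidence.

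**Figure D1:**
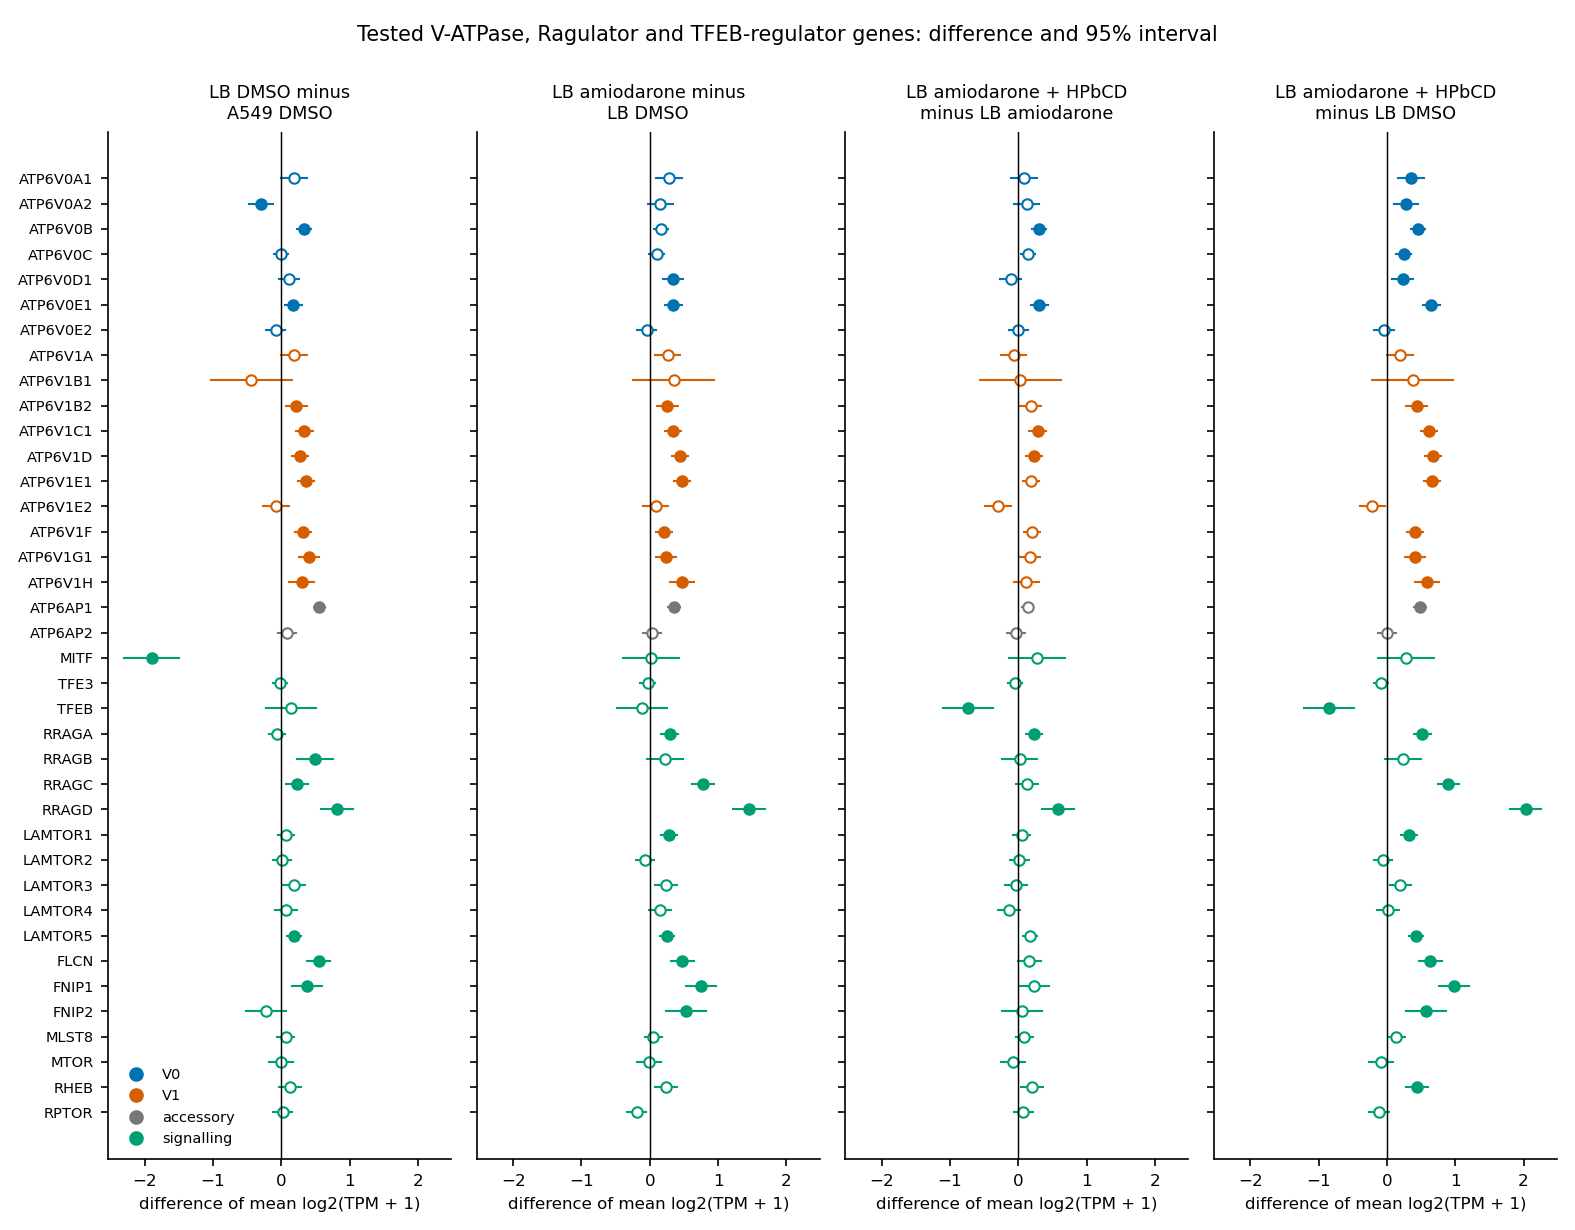
Difference of mean log2(TPM + 1) with its 95% interval (bars) for the 38 tested members, 1 panel per comparison, with V0 genes in blue, V1 in orange, accessory in grey and signalling in green. Filled points passed the test and open points did not; 18 points are filled to the right of 0 with amiodarone, 23 with amiodarone + HPbCD against LB DMSO, and RRAGD lies furthest right in both.

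How firmly these calls stood differed between comparisons. Over 22 alternative settings, 12 of 18 calls held throughout in LB DMSO against A549 DMSO, 14 of 18 with amiodarone, 20 of 24 with amiodarone + HPbCD against LB DMSO, and 1 of 7, ATP6V0B, with HPbCD added to amiodarone. That last count of 6 rises was 3 without LB amiodarone 1, LB amiodarone 3 or LB amiodarone + HPbCD 1, 2 without LB amiodarone + HPbCD 3, and 9 without A549 DMSO 3. No value of a called member changed sign.

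As a description of sequence, the members' RefSeq promoter windows (GRCh38.p14, 250 bases before to 50 after the start) were searched for the E-box TCACGTG on either strand, which contains CACGTG. A window was given for 33 of the 43 members. Of these, 9 held TCACGTG, and the same 9 held CACGTG. Among all tested genes with a window, 7.44% held TCACGTG and 12.9% CACGTG. The stretches below, from all 9 genes, are 30 bases on the gene's strand with CACGTG in capitals. Of these 9 genes 6 rose with amiodarone + HPbCD against LB DMSO, and 11 of the 20 tested members without the motif did so too. A match is a description of these letters and not a binding site.

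ATP6V0B, chr1:43974900-43974929, plus strand: ggtCACGTGgtaccggcgcatCACGTGggc
ATP6V0D1, chr16:67481199-67481228, minus strand: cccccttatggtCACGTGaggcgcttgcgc
ATP6V1G1, chr9:114587699-114587728, plus strand: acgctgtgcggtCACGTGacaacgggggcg
FNIP1, chr5:131797175-131797204, minus strand: ccccgcccctgcCACGTGacgggacccgcc
FNIP1, chr5:131797094-131797123, minus strand: tccgcgcgccgcCACGTGatgcggcccccc
LAMTOR1, chr11:72103445-72103474, minus strand: ctttccccgcatCACGTGcttgcgtgtacg
RRAGC, chr1:38859867-38859896, minus strand: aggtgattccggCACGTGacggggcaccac
ATP6V0E2, chr7:149872884-149872913, plus strand: tcccttctgcatCACGTGgggactgcgcct
LAMTOR4, chr7:100148888-100148917, plus strand: gcgcagcggctgcaagCACGTGaccggggc
RRAGB, chrX:55717622-55717651, plus strand: ctgagccaaggcCACGTGatgatgacagac
RRAGB, chrX:55717712-55717741, plus strand: ggtagcggcagtCACGTGacagactccggg

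ATP6V0B carried 2 copies of CACGTG within the stretch from 57 to 34 bases before its start, and FNIP1 and RRAGB carried 2 copies further apart. ATP6V0E2, LAMTOR4 and RRAGB, printed last, did not pass the test with amiodarone + HPbCD. In that comparison with LB DMSO, 6 of the 9 tested carriers rose with a median log2 difference of 0.32, and 11 of the 20 tested members without the motif rose and 1 fell, with a median of 0.32. With amiodarone alone the figures were 5 of 9 (median 0.24) and 7 of 20 (0.22). Carriers and the other members thus had medians of about the same size in both comparisons. RRAGD was among the 10 members without a window.

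**Figure D2:**
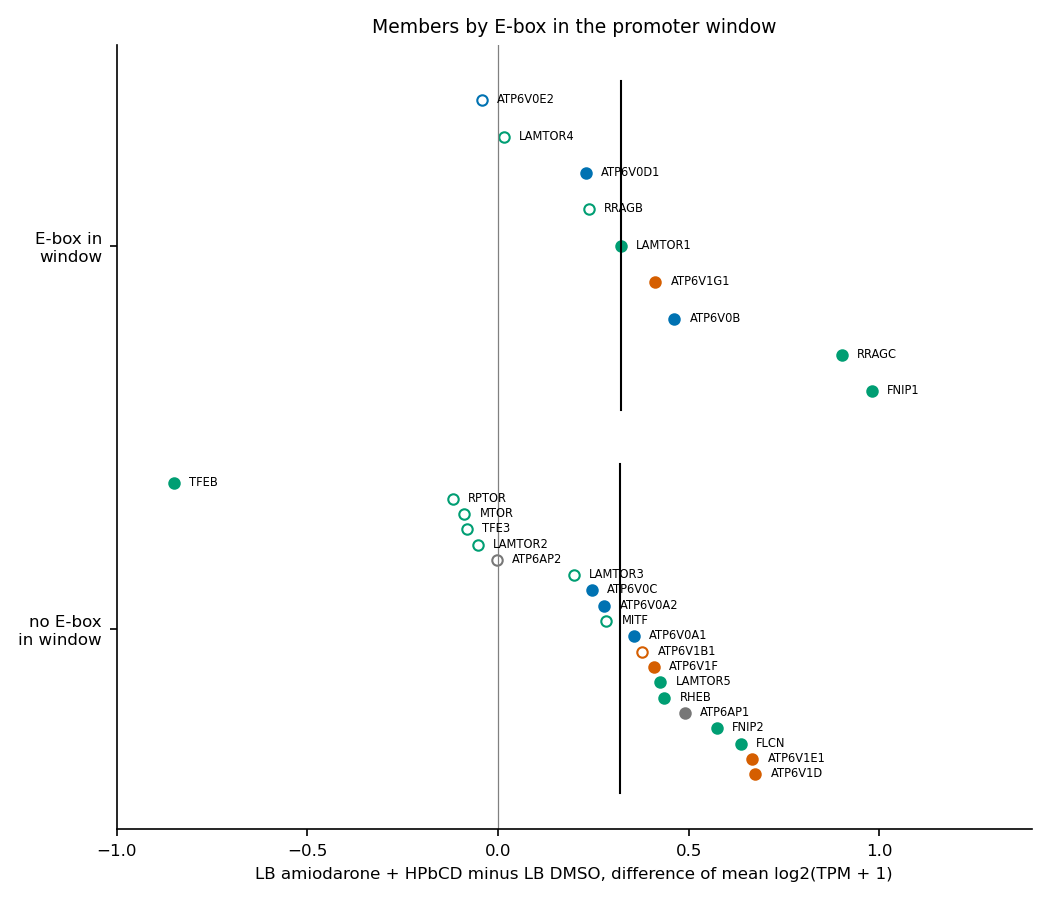
Difference of mean log2(TPM + 1) between LB amiodarone + HPbCD and LB DMSO for the 29 tested members with a promoter window, split by whether the window holds CACGTG; points are filled where the test was passed, coloured by V0, V1, accessory and signalling group as above, and black lines mark medians. The medians of the 9 members with and the 20 without the motif are both 0.32.

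RRAGD had the largest rise of the tested members in each of the 4 comparisons. The gene (chromosome 6, 89364636-89412270, minus strand), whose product pairs with RRAGA or RRAGB in place of RRAGC, measured 2.91, 3.93 and 3.79 TPM in A549 DMSO, 6.61, 7.26 and 6.95 in LB DMSO, 18.6, 21.1 and 22.7 in LB amiodarone and 31.2, 29.03 and 34.1 in LB amiodarone + HPbCD. No 2 groups overlapped, and each treatment step lay above the one before. The log2 difference was 0.81 ± 0.11 (SE) in LB DMSO against A549 DMSO (adjusted p = 9.60e-05), 1.45 ± 0.11 with amiodarone (adjusted p = 3.26e-06) and 2.03 ± 0.11 with amiodarone + HPbCD (adjusted p = 1.18e-07), a ratio of mean TPM of 4.53 to LB DMSO. Of all tested genes, 0.26% had a larger log2 difference with amiodarone and 0.18% with amiodarone + HPbCD. HPbCD added to amiodarone gave 0.58 ± 0.11 (adjusted p = 0.00999), and the call was lost without LB amiodarone + HPbCD 3 (adjusted p = 0.0534). With a pseudocount of 5 the difference between LB DMSO and A549 DMSO was 0.49.

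RRAGC (chromosome 1, 38838198-38859823, minus strand), the more abundant paralog in untreated cells, measured 11.7, 11.8 and 10.3 TPM in A549 DMSO, 13.9, 13.1 and 13.2 in LB DMSO, 23.8, 22.3 and 24.97 in LB amiodarone and 27.3, 24.8 and 25.8 in LB amiodarone + HPbCD. Its rise with amiodarone was 0.77 ± 0.073 (adjusted p = 3.54e-05), and the 2 groups with drug overlapped (difference 0.13 ± 0.073, adjusted p = 0.4). The rise of 0.24 ± 0.073 in LB DMSO against A549 DMSO passed the test (adjusted p = 0.027), and the call was lost with only the 2 groups compared in the fit or without A549 DMSO 3 or LB DMSO 1 or LB DMSO 3 (adjusted p from 0.0535 to 0.0966). RRAGD made up 23.9 ± 3.61% of the summed RRAGC and RRAGD TPM in A549 DMSO, 34.1 ± 1.75% in LB DMSO, 46.7 ± 2.52% in LB amiodarone and 54.8 ± 1.896% in LB amiodarone + HPbCD (SD, n = 3). All 3 libraries with amiodarone + HPbCD held more RRAGD than RRAGC. With 3 libraries against 3, an exact permutation test of such a share cannot go below p = 0.10, so these shares are given without a test.

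RRAGA, the GTPase that with RRAGB forms the other side of the heterodimer, measured 86.2, 87.02 and 94.6 TPM in A549 DMSO, 79.7, 86.8 and 89.9 in LB DMSO, 107, 101 and 106 in LB amiodarone and 127, 119.7 and 122 in LB amiodarone + HPbCD. It rose with amiodarone (0.29 ± 0.056, adjusted p = 0.00729) and by 0.52 ± 0.056 with amiodarone + HPbCD against LB DMSO (adjusted p = 5.16e-05). The further 0.23 ± 0.056 on adding HPbCD passed at 0.0404, and the call was lost with no filter, after quantile normalization, without limma's trend or without LB DMSO 2, any 1 of the 3 LB amiodarone libraries or any 1 of the 3 LB amiodarone + HPbCD libraries (adjusted p from 0.0611 to 0.156). RRAGB passed between the cell lines and did not pass with the drug. It measured 6.8, 6.32 and 8.16 TPM in A549 DMSO, 11.03, 11.5 and 8.65 in LB DMSO, 10.9, 12.96 and 12.8 in LB amiodarone and 12.8, 12.9 and 11.4 in LB amiodarone + HPbCD. Its A549 DMSO libraries all lay below the LB ones (difference 0.49 ± 0.12, adjusted p = 0.00765), and the difference with amiodarone was 0.22 ± 0.12 (adjusted p = 0.304, 95% interval −0.04 to 0.48).

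**Figure D3:**
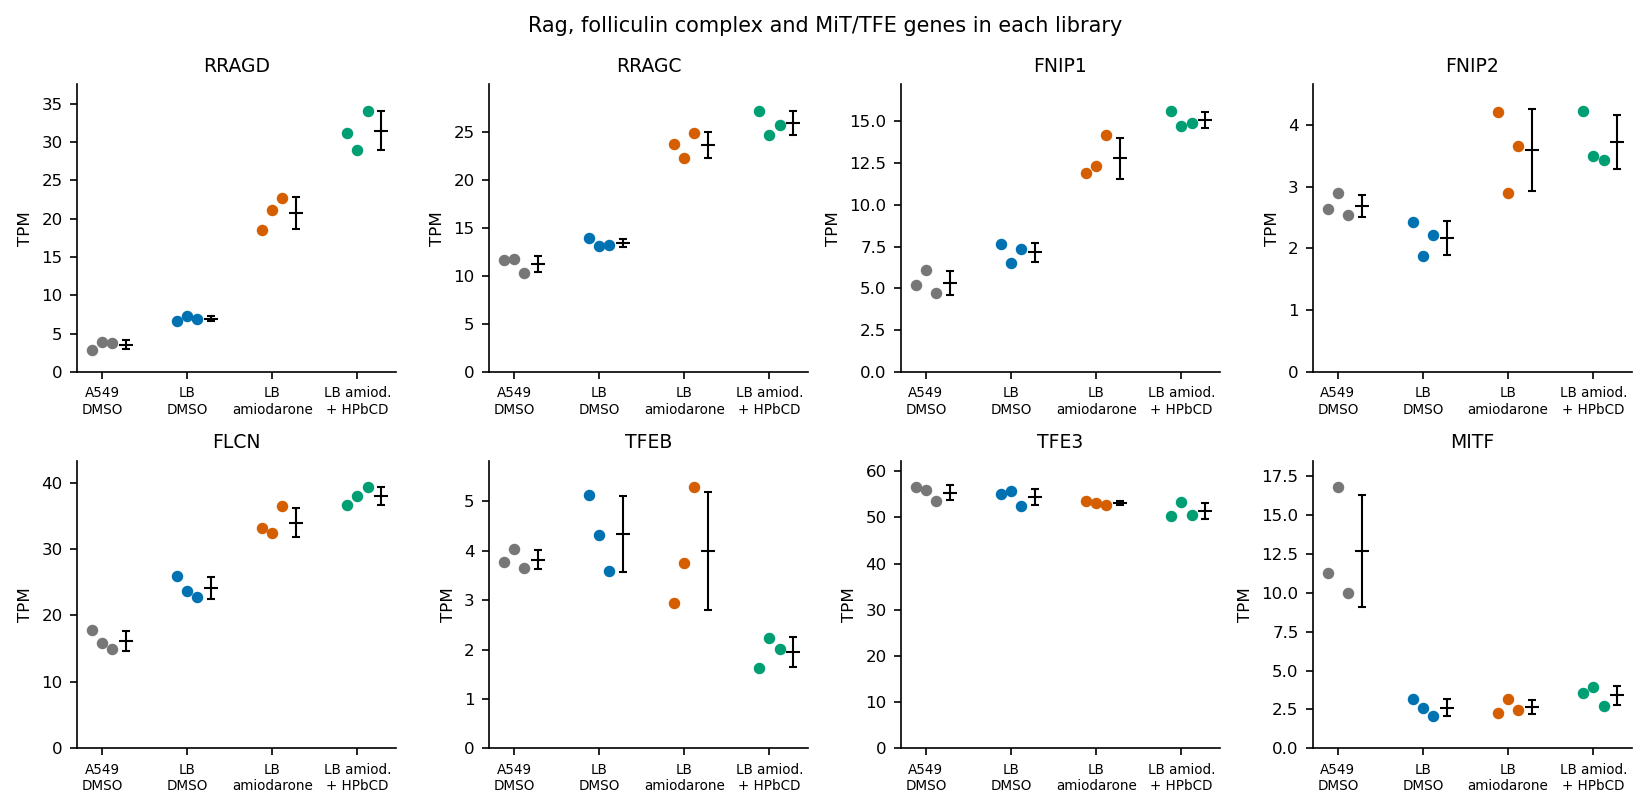
TPM of 8 signalling genes in each library (dots, 3 per group) with group mean ± SD (black bar beside the dots), each axis starting at 0. RRAGD, FNIP1 and FLCN lie higher in each group from left to right, TFE3 stays between 50.3 and 56.6 TPM, MITF is highest in A549 DMSO and TFEB is lowest in LB amiodarone + HPbCD. The last step of FNIP1 and of FLCN did not pass the test.

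All 3 folliculin complex genes rose with amiodarone, beside 4.90% of all tested genes. FNIP1 (chromosome 5, 131641714-131797063, minus strand), a folliculin partner with 2 E-box copies in the window printed above, measured 5.19, 6.09 and 4.71 TPM in A549 DMSO, 7.64, 6.54 and 7.34 in LB DMSO, 11.9, 12.3 and 14.2 in LB amiodarone and 15.7, 14.7 and 14.9 in LB amiodarone + HPbCD. The 4 groups followed each other without overlap. The rise was 0.75 ± 0.10 with amiodarone (adjusted p = 0.000632) and 0.98 ± 0.10 with amiodarone + HPbCD (adjusted p = 3.57e-05), while the step between those 2 groups, 0.23 ± 0.10, did not pass (adjusted p = 0.263). Between the cell lines FNIP1 differed by 0.37 ± 0.10 (adjusted p = 0.0131), and the call was lost with only the 2 groups compared in the fit or without A549 DMSO 3 or LB DMSO 1 (adjusted p from 0.0508 to 0.0584). With a pseudocount of 5 that difference was 0.24. FNIP1 shares exonic sequence on its own strand with AC008695.1, at 0.28 to 2.17 TPM, which a strand setting cannot tell apart.

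FLCN (chromosome 17, 17212212-17237188, minus strand), folliculin itself, measured 17.8, 15.8 and 14.9 TPM in A549 DMSO, 25.9, 23.7 and 22.7 in LB DMSO, 33.1, 32.3 and 36.5 in LB amiodarone and 36.6, 38.02 and 39.3 in LB amiodarone + HPbCD. Here too no 2 groups overlapped, though the 2 groups with drug came as close as 36.49 and 36.65 TPM. The step between those 2 groups, 0.16 ± 0.078, did not pass (adjusted p = 0.315). As with FNIP1, a gene on the same strand, AC055811.2, shares exonic sequence with FLCN, at 0.85 to 2.78 TPM. FLCN rose by 0.55 ± 0.078 between the cell lines (adjusted p = 0.000173), 0.48 ± 0.078 with amiodarone (adjusted p = 0.00273) and 0.64 ± 0.078 with amiodarone + HPbCD against LB DMSO (adjusted p = 0.000148), and these 3 calls held in all 22 alternatives. FNIP2, the less abundant partner, measured 2.64, 2.89 and 2.54 TPM in A549 DMSO, 2.42, 1.87 and 2.22 in LB DMSO, 4.21, 2.89 and 3.66 in LB amiodarone and 4.23, 3.5 and 3.43 in LB amiodarone + HPbCD. Its rise with amiodarone was 0.53 ± 0.13 (adjusted p = 0.0322), and the call was lost with no filter, with only the 2 groups compared in the fit or without any 1 of the 3 LB DMSO libraries or LB amiodarone 1 or LB amiodarone 3 (adjusted p from 0.0532 to 0.112). With amiodarone + HPbCD it was 0.57 ± 0.13 (adjusted p = 0.0112), and the call was lost without LB amiodarone + HPbCD 1 (adjusted p = 0.0539), and a pseudocount of 5 gave 0.26 and 0.28 for these 2 differences. FNIP1 made up 66.4 ± 1.43% of the summed FNIP1 and FNIP2 TPM in A549 DMSO and 76.8 ± 0.911% in LB DMSO (SD, n = 3).

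Of the 3 factors at the end of this pathway, 0 passed as higher in any comparison, also by unadjusted p under 0.05. TFE3 was the most abundant transcript of the 3 in every library, at 56.6, 56.03 and 53.5 TPM in A549 DMSO, 55.1, 55.7 and 52.5 in LB DMSO, 53.6, 53.2 and 52.7 in LB amiodarone and 50.3, 53.4 and 50.6 in LB amiodarone + HPbCD. Its difference with amiodarone was −0.03 ± 0.048 (95% interval −0.14 to 0.07, adjusted p = 0.745) and with amiodarone + HPbCD against LB DMSO −0.08 ± 0.048 (95% interval −0.18 to 0.02, adjusted p = 0.272). The transcript of a factor says nothing of its phosphorylation or its place in the cell, which were not measured here.

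TFEB (chromosome 6, 41683978-41736259, minus strand) measured 3.78, 4.04 and 3.65 TPM in A549 DMSO, 5.13, 4.32 and 3.59 in LB DMSO, 2.94, 3.75 and 5.29 in LB amiodarone and 1.63, 2.23 and 2.01 in LB amiodarone + HPbCD. All 3 libraries with amiodarone + HPbCD lay below the 9 others, while the first 3 groups overlapped. With amiodarone the difference was −0.12 ± 0.17 (adjusted p = 0.751, 95% interval −0.48 to 0.25). Against LB DMSO the fall with amiodarone + HPbCD was −0.85 ± 0.17 (adjusted p = 0.00433), a ratio of mean TPM of 0.45. Against LB amiodarone it was −0.73 ± 0.17 (adjusted p = 0.0311), and the call was lost with no filter, with only the 2 groups compared in the fit or without LB amiodarone 2 or LB amiodarone 3 or any 1 of the 3 LB amiodarone + HPbCD libraries (adjusted p from 0.0565 to 0.129). A pseudocount of 5 gave −0.42 and −0.36 for these 2 differences.

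MITF (chromosome 3, 69739435-69968337, plus strand) measured 11.3, 16.8 and 9.99 TPM in A549 DMSO, 3.17, 2.58 and 2.1 in LB DMSO, 2.29, 3.17 and 2.47 in LB amiodarone and 3.53, 3.94 and 2.73 in LB amiodarone + HPbCD. The A549 DMSO libraries stood apart from the 9 LB libraries, which overlapped across treatments. MITF fell by 1.90 on the log2 scale in LB DMSO against A549 DMSO (SE 0.19, adjusted p = 8.98e-06), the largest absolute difference among the members in that comparison, and by 1.20 with a pseudocount of 5. With amiodarone the difference was 0.01 ± 0.19 (adjusted p = 0.978) and with HPbCD added 0.27 ± 0.19 (adjusted p = 0.501). TFE3 made up 77.2 ± 3.73% of the 3 transcripts in A549 DMSO, 88.7 ± 1.68% in LB DMSO, 88.9 ± 2.003% in LB amiodarone and 90.6 ± 0.907% in LB amiodarone + HPbCD (SD, n = 3).

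Of the 10 tested V1 genes, which form the ATP-hydrolysing sector, 7 rose in LB DMSO against A549 DMSO, 7 with amiodarone and 7 with amiodarone + HPbCD against LB DMSO, with medians of 0.29, 0.30 and 0.43. These were in each case ATP6V1B2, ATP6V1C1, ATP6V1D, ATP6V1E1, ATP6V1F, ATP6V1G1 and ATP6V1H. Of all tested genes, 14.2%, 4.90% and 10.1% rose in the same order. With HPbCD added to amiodarone 2 rose, ATP6V1C1 and ATP6V1D, with a median of 0.18 over the 10, beside 2.71% of all tested genes that rose. By unadjusted p under 0.05 that comparison had 6 V1 genes higher and 1 lower, beside 1320 and 1188 of all 13968 tested genes. The count of 7 with amiodarone was 4 with no filter, without limma's trend or without LB DMSO 1, LB DMSO 2, LB amiodarone 1 or LB amiodarone 2. The count of 2 was 0 without LB amiodarone 1, LB amiodarone + HPbCD 1 or LB amiodarone + HPbCD 3, and 4 without A549 DMSO 3. It was 1 with no filter, after quantile normalization, without limma's trend or without LB DMSO 2, LB amiodarone 2, LB amiodarone 3 or LB amiodarone + HPbCD 2.

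ATP6V1E1, a subunit of the peripheral stalk that holds V1 to V0, measured 80.7, 80.8 and 92.4 TPM in A549 DMSO, 110.0, 106 and 109 in LB DMSO, 156, 148 and 151 in LB amiodarone and 173, 176 and 169.7 in LB amiodarone + HPbCD. Each group lay wholly above the one before. The differences were 0.36 ± 0.054 between the cell lines (adjusted p = 0.000264), 0.48 ± 0.054 with amiodarone (adjusted p = 0.000157) and 0.67 ± 0.054 with amiodarone + HPbCD (adjusted p = 4.36e-06). On adding HPbCD to amiodarone ATP6V1E1 differed by 0.19 ± 0.054, which did not pass (adjusted p = 0.0735). That step passed with only the 2 groups compared in the fit (adjusted p = 0.0416) and without A549 DMSO 3 (adjusted p = 0.0194). Its testis-enriched paralog ATP6V1E2 ranged from 10.36 to 15.21 TPM and passed in no comparison, so that ATP6V1E1 made up 85.6 ± 1.03% of the pair in A549 DMSO and 93.8 ± 0.678% in LB amiodarone + HPbCD (SD, n = 3). ATP6V1E2 shares exonic sequence on the opposite strand with RHOQ, at 29.03 to 79.03 TPM, and no source used here gives the strand setting of the counting.

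ATP6V1D, a subunit of the central rotor shaft, measured 70.3, 72.3 and 78.5 TPM in A549 DMSO, 83.9, 89.8 and 93.8 in LB DMSO, 119, 121 and 125 in LB amiodarone and 146, 139 and 144 in LB amiodarone + HPbCD. It rose by 0.27 ± 0.055 between the cell lines (adjusted p = 0.00222), 0.44 ± 0.055 with amiodarone (adjusted p = 0.000343) and 0.67 ± 0.055 with amiodarone + HPbCD (adjusted p = 4.44e-06). The step on adding HPbCD was 0.23 ± 0.055 (adjusted p = 0.0357), and the call was lost with no filter, after quantile normalization, without limma's trend or without LB DMSO 2, any 1 of the 3 LB amiodarone libraries or any 1 of the 3 LB amiodarone + HPbCD libraries (adjusted p from 0.0522 to 0.136). ATP6V1D overlaps EIF2S1 on the opposite strand, at 209.34 to 280.03 TPM, so an unstranded count could not tell their shared stretch apart.

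ATP6V1C1, the C subunit that detaches when V1 and V0 separate, measured 32.9, 36.1 and 36.03 TPM in A549 DMSO, 43.9, 46.1 and 43.5 in LB DMSO, 54.0, 57.9 and 57.5 in LB amiodarone and 70.7, 66.9 and 68.99 in LB amiodarone + HPbCD. The groups followed each other without overlap, with a rise of 0.34 ± 0.055 between the cell lines (adjusted p = 0.000478), 0.34 ± 0.055 with amiodarone (adjusted p = 0.00276) and 0.62 ± 0.055 with amiodarone + HPbCD (adjusted p = 9.98e-06). Adding HPbCD to amiodarone gave 0.28 ± 0.055 (adjusted p = 0.0131), and the call was lost without LB amiodarone 1 or LB amiodarone + HPbCD 1 or LB amiodarone + HPbCD 3 (adjusted p from 0.0534 to 0.0671). ATP6V1H, the regulatory H subunit, measured 25.6, 20.3 and 24.8 TPM in A549 DMSO, 28.9, 30.5 and 28.02 in LB DMSO, 40.6, 41.4 and 40.2 in LB amiodarone and 41.02, 46.7 and 45.2 in LB amiodarone + HPbCD. It rose by 0.47 ± 0.083 with amiodarone (adjusted p = 0.0043), and the 2 groups with drug overlapped. Between the cell lines it rose by 0.30 ± 0.083 (adjusted p = 0.0145), and the call was lost with only the 2 groups compared in the fit or without LB DMSO 2 (adjusted p from 0.0579 to 0.0592).

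ATP6V1G1, another stalk subunit, with 1 E-box in its window, measured 78.04, 79.5 and 93.2 TPM in A549 DMSO, 111, 107 and 114 in LB DMSO, 133, 124 and 138 in LB amiodarone and 149, 142 and 153 in LB amiodarone + HPbCD. Its largest step was between the cell lines (0.41 ± 0.067, adjusted p = 0.000549). With amiodarone it rose by 0.24 ± 0.067 (adjusted p = 0.0449), and the call was lost with no filter, without limma's trend or without any 1 of the 3 LB DMSO libraries, any 1 of the 3 LB amiodarone libraries or any 1 of the 3 LB amiodarone + HPbCD libraries (adjusted p from 0.0507 to 0.146). GENCODE 29 names 5 pseudogenes of ATP6V1G1 and 1 of ATP6V1E1, and how reads were divided between such copies makes these values less certain. ATP6V1F, the other rotor subunit, rose from 175 ± 12.01 TPM in A549 DMSO (SD, n = 3) to 218 ± 6.299 in LB DMSO and reached 289.9 ± 5.06 in LB amiodarone + HPbCD. Its amiodarone rise of 0.21 ± 0.053 (adjusted p = 0.0306) was lost with no filter, without limma's trend or without any 1 of the 3 LB DMSO libraries or LB amiodarone 1 or LB amiodarone 2 (adjusted p from 0.0574 to 0.111).

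The catalytic head is built of A and B subunits, which were not tested against each other. ATP6V1B2, the widely expressed B subunit, had a mean of 44.9 ± 2.095 TPM in A549 DMSO (SD, n = 3), 52.5 ± 5.15 in LB DMSO, 62.6 ± 1.87 in LB amiodarone and 71.2 ± 3.97 in LB amiodarone + HPbCD. It rose by 0.44 ± 0.071 with amiodarone + HPbCD against LB DMSO (adjusted p = 0.0012). The call between the cell lines (0.22 ± 0.071, adjusted p = 0.0341) was lost with no filter, without limma's trend, with only the 2 groups compared in the fit or without A549 DMSO 1 or A549 DMSO 2 or LB DMSO 1 or LB DMSO 3 (adjusted p from 0.0551 to 0.14). The one with amiodarone (0.25 ± 0.071, adjusted p = 0.0469) was lost with no filter, without limma's trend, with only the 2 groups compared in the fit or without A549 DMSO 1, LB DMSO 1 or LB DMSO 2, any 1 of the 3 LB amiodarone libraries or any 1 of the 3 LB amiodarone + HPbCD libraries (adjusted p from 0.0528 to 0.16). That call was also lost with a block for the replicate number (adjusted p = 0.0582). ATP6V1A, the subunit that binds and hydrolyses ATP, passed in no comparison: its means were 25.5 ± 2.81, 29.2 ± 1.77, 35.2 ± 3.22 and 33.4 ± 1.21 TPM in the same order, and its difference was 0.26 ± 0.087 with amiodarone (95% interval 0.07 to 0.45, adjusted p = 0.0888) and 0.19 ± 0.087 with amiodarone + HPbCD against LB DMSO (95% interval 0.00 to 0.38). Between the cell lines ATP6V1A differed by 0.19 ± 0.087 (adjusted p = 0.117) and passed after quantile normalization (adjusted p = 0.045) and without A549 DMSO 3 (adjusted p = 0.0372). ATP6V1B1, the B subunit of kidney and inner ear, ranged from 1.55 to 5.14 TPM and passed in none. It shares exonic sequence on its own strand with VAX2, at 2.75 to 5.3 TPM.

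**Figure D4:**
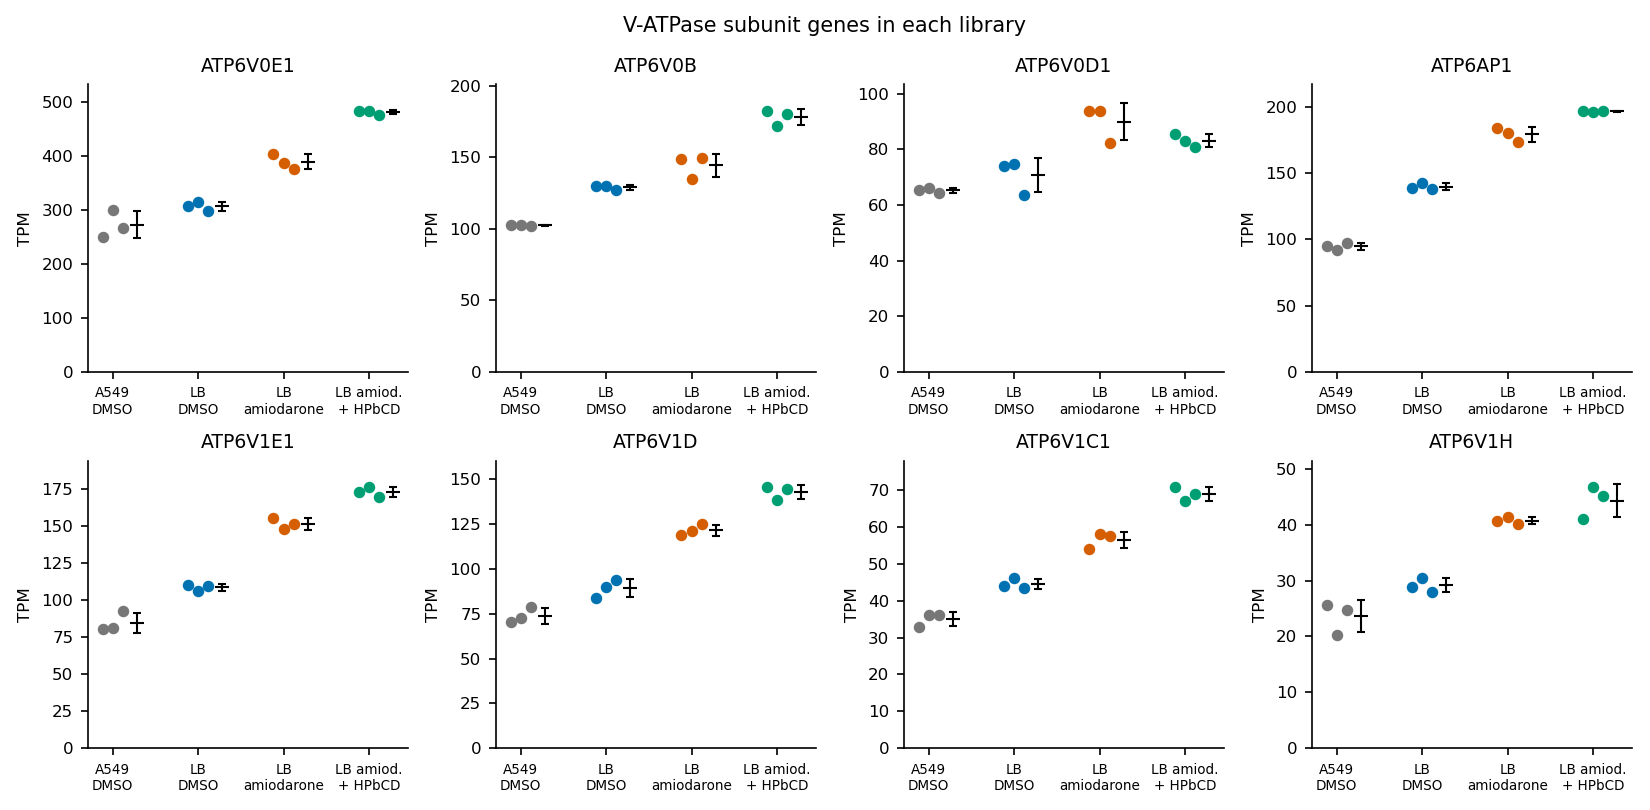
TPM of 8 V-ATPase genes in each library (dots, 3 per group) with group mean ± SD (black bar beside the dots), each axis starting at 0. ATP6V1E1, ATP6V1D, ATP6V1C1 and ATP6AP1 step up from group to group, while ATP6V0D1 has its highest mean in LB amiodarone, at 82.3 to 93.9 TPM. The last step passed the test for ATP6V1D and ATP6V1C1 and did not pass for ATP6V1E1 or ATP6AP1.

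Among the 7 tested V0 genes, which form the proton path and its attachments, 2 rose and 1 fell in LB DMSO against A549 DMSO, 2 rose with amiodarone and 6 with amiodarone + HPbCD against LB DMSO, with medians of 0.11, 0.16 and 0.28. Of all tested genes, 14.2% rose and 18.2% fell in the first of these, 4.90% rose in the second and 10.1% in the third. With HPbCD added to amiodarone 2 rose, beside 2.71% of all tested genes, with a median of 0.12. By unadjusted p under 0.05 there were 3 higher and 0 lower in that comparison, beside 1320 and 1188 of all 13968 tested genes. The count of 6 was 3 without LB amiodarone + HPbCD 2. The first count of 2 rises was 1 with no filter, without limma's trend, with only the 2 groups compared in the fit or without A549 DMSO 1, A549 DMSO 3, LB DMSO 1 or LB DMSO 2. The count with HPbCD added was 1 without LB amiodarone 3. V0 and V1 were not tested against each other.

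ATP6V0E1, a small membrane subunit and the most abundant V0 transcript, measured 251, 299.5 and 267 TPM in A549 DMSO, 307, 315 and 298 in LB DMSO, 404, 388 and 377 in LB amiodarone and 484, 484 and 476 in LB amiodarone + HPbCD. The 3 LB groups did not overlap. It rose by 0.34 ± 0.057 with amiodarone (adjusted p = 0.00316) and 0.65 ± 0.057 with amiodarone + HPbCD against LB DMSO (adjusted p = 9.88e-06). The step on adding HPbCD was 0.30 ± 0.057 (adjusted p = 0.011), and the call was lost without LB amiodarone 3 (adjusted p = 0.0538). Between the cell lines it was 0.17 ± 0.057 (adjusted p = 0.036), and the call was lost with no filter, without limma's trend, with only the 2 groups compared in the fit or without A549 DMSO 1 or A549 DMSO 3 or LB DMSO 1 or LB DMSO 2 (adjusted p from 0.0736 to 0.136), and leaving out A549 DMSO 1 brought the difference to 0.12 on the log2 scale. The paralog ATP6V0E2 ranged from 56.57 to 71.18 TPM and passed in no comparison, and ATP6V0E1 made up 79.8 ± 1.08% of the pair in A549 DMSO, 82.5 ± 0.307% in LB DMSO, 86.1 ± 0.854% in LB amiodarone and 88.4 ± 0.3898% in LB amiodarone + HPbCD (SD, n = 3). GENCODE 29 names 4 pseudogenes each for ATP6V0E1 and ATP6V0C. ATP6V0C also shares exonic sequence on its own strand with AC093525.2, at 3.7 to 5.88 TPM.

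ATP6V0B, a proteolipid of the proton-carrying ring with 2 E-box copies in its window, measured 102, 103 and 102 TPM in A549 DMSO, 130.1, 129.9 and 127 in LB DMSO, 149, 135 and 149 in LB amiodarone and 183, 172 and 180.4 in LB amiodarone + HPbCD. The groups did not overlap. Its rise of 0.30 ± 0.047 on adding HPbCD to amiodarone (adjusted p = 0.00327) was the one call of that comparison that held in every alternative, and it differed by 0.33 ± 0.047 between the cell lines (adjusted p = 0.00017). With amiodarone against LB DMSO the difference was 0.16 ± 0.047 (adjusted p = 0.0571). ATP6V0C, the main ring proteolipid, had means of 197 ± 11.1, 196 ± 1.29, 211 ± 10.3 and 233 ± 2.18 TPM from A549 DMSO to LB amiodarone + HPbCD (SD, n = 3) and passed only in the last against LB DMSO (0.25 ± 0.049, adjusted p = 0.00417).

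ATP6V0D1, which links the ring to the V1 shaft, had its highest mean with amiodarone: the group means were 65.3 ± 0.957, 70.8 ± 6.18, 89.96 ± 6.65 and 83.04 ± 2.41 TPM in the same order (SD, n = 3). It rose by 0.34 ± 0.069 with amiodarone (adjusted p = 0.00954). The 2 groups with drug overlapped, and their difference did not pass (−0.11 ± 0.069, adjusted p = 0.437). Against LB DMSO the difference with amiodarone + HPbCD was 0.23 ± 0.069 (adjusted p = 0.0364), and the call was lost with no filter, after quantile normalization, with mitochondrially encoded genes removed, without limma's trend, with only the 2 groups compared in the fit or without LB DMSO 3 or any 1 of the 3 LB amiodarone + HPbCD libraries (adjusted p from 0.0524 to 0.136). The a subunits help to direct the pump to different membranes. ATP6V0A1, one of them, rose by 0.36 ± 0.087 with amiodarone + HPbCD against LB DMSO (adjusted p = 0.0139), and the call was lost without LB amiodarone + HPbCD 2 (adjusted p = 0.0581). ATP6V0A2 was the V0 gene that fell between the cell lines (−0.30 ± 0.083, adjusted p = 0.0164), and the call was lost after quantile normalization or without A549 DMSO 2 or A549 DMSO 3 or LB DMSO 3 (adjusted p from 0.0548 to 0.0592). It rose with amiodarone + HPbCD (0.28 ± 0.083, adjusted p = 0.0365), and the call was lost with no filter, after quantile normalization, with mitochondrially encoded genes removed or without any 1 of the 3 LB DMSO libraries or LB amiodarone + HPbCD 2 or LB amiodarone + HPbCD 3 (adjusted p from 0.0542 to 0.12). TCIRG1, the a3 subunit found on lysosomes, was the most abundant a subunit at 139 ± 21.9, 112 ± 8.61, 94.2 ± 12.7 and 93.3 ± 14.5 TPM and passed in no comparison. It made up 73.7 ± 2.92% of the 4 a transcripts in A549 DMSO, 70.2 ± 1.68% in LB DMSO, 62.4 ± 2.48% in LB amiodarone and 60.5 ± 2.92% in LB amiodarone + HPbCD (SD, n = 3), and was singled out after its values were seen.

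Of the accessory genes, ATP6AP1 passed and ATP6AP2 did not. ATP6AP1, which helps assemble V0 and is a chaperone of the pump, measured 94.9, 92.3 and 97.1 TPM in A549 DMSO, 139, 143 and 138 in LB DMSO, 184, 180.2 and 173 in LB amiodarone and 197, 196 and 197 in LB amiodarone + HPbCD. No 2 groups overlapped. It rose by 0.56 ± 0.040 between the cell lines (adjusted p = 4.93e-07), 0.35 ± 0.040 with amiodarone (adjusted p = 0.000145) and 0.49 ± 0.040 with amiodarone + HPbCD (adjusted p = 4.36e-06). The step on adding HPbCD to amiodarone, 0.13 ± 0.040, did not pass (adjusted p = 0.0875). ATP6AP2, the (pro)renin receptor, ranged from 124.3 to 148.35 TPM and passed in no comparison, although without A549 DMSO 3 its difference between the cell lines, 0.08 ± 0.060, became 0.16 with an adjusted p of 0.0177.

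Summed over genes, the 9 V0 transcripts came to 755 ± 31.7 TPM in A549 DMSO (SD, n = 3), 816 ± 18.5 in LB DMSO, 955 ± 30.9 in LB amiodarone and 1100.5 ± 10.9 in LB amiodarone + HPbCD. The 13 V1 transcripts came to 564 ± 36.1, 698 ± 6.48, 870.5 ± 11.8 and 986 ± 4.29 TPM. Each of the 4 groups lay above the one before in both sums, without overlap, though the V0 sums of A549 DMSO 2 and LB DMSO 3 were 790.9 and 795.74 TPM. TCIRG1 is in neither the V0 sum nor the ratio that follows. Its means went the other way, from 139 TPM in A549 DMSO to 112 in LB DMSO, 94.2 in LB amiodarone and 93.3 in LB amiodarone + HPbCD. With TCIRG1 added, the V0 sums of A549 DMSO and LB DMSO would overlap, as TCIRG1 measured 141.44 TPM in A549 DMSO 2 and 104.98 in LB DMSO 3. The ratio and its spread among the LB groups would change as well. The V0 sum divided by the V1 sum was 1.34 ± 0.126 in A549 DMSO, 1.17 ± 0.03595 in LB DMSO, 1.097 ± 0.0394 in LB amiodarone and 1.12 ± 0.00636 in LB amiodarone + HPbCD. The ratio in A549 DMSO lay above that in every LB library, and the 3 LB groups lay within 1.05 to 1.20. The 4 Rag transcripts summed to 116 ± 4.301 TPM in LB DMSO and 193 ± 5.803 in LB amiodarone + HPbCD, and the 3 folliculin complex transcripts to 33.5 ± 2.19 and 56.8 ± 0.741. TFEB, TFE3 and MITF together came to 61.4 ± 2.77 and 56.8 ± 2.37, and their libraries in these 2 groups overlapped.

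**Figure D5:**
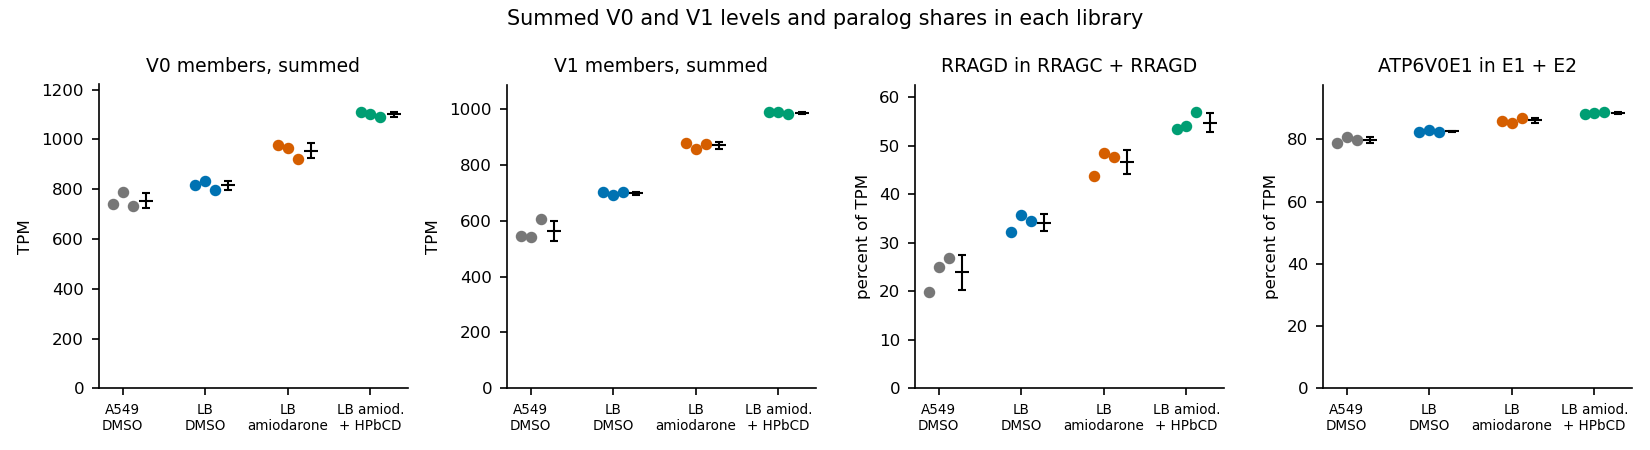
Summed TPM of the V0 and V1 members, and the share of RRAGD in RRAGC + RRAGD and of ATP6V0E1 in ATP6V0E1 + ATP6V0E2, in each library (dots) with group mean ± SD (black bar). All 4 quantities are lowest in A549 DMSO and highest in LB amiodarone + HPbCD, where RRAGD reaches 53.4 to 56.9% of its pair. The V0 sum leaves out TCIRG1.

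Of the 5 Ragulator genes, the scaffold that holds the Rag GTPases on the lysosome, LAMTOR5 rose in LB DMSO against A549 DMSO, LAMTOR1 and LAMTOR5 rose with amiodarone and with amiodarone + HPbCD against LB DMSO, and none passed on adding HPbCD, where 1 was higher by unadjusted p under 0.05. Of all tested genes, 14.2%, 4.90% and 10.1% rose in the first 3 of these comparisons. On adding HPbCD, 1320 of all 13968 were higher by unadjusted p. LAMTOR1, the lipid-anchored subunit that fixes the complex to the membrane, had means of 108 ± 4.05, 113 ± 4.21, 137 ± 9.28 and 141 ± 3.39 TPM from A549 DMSO to LB amiodarone + HPbCD (SD, n = 3). It rose by 0.28 ± 0.054 with amiodarone (adjusted p = 0.00857) and 0.32 ± 0.054 with amiodarone + HPbCD (adjusted p = 0.00149). LAMTOR5 had means of 153 ± 7.66, 175 ± 5.22, 209 ± 7.34 and 235 ± 5.76 TPM and rose by 0.19 ± 0.047 between the cell lines (adjusted p = 0.00773), 0.25 ± 0.047 with amiodarone (adjusted p = 0.00646) and 0.43 ± 0.047 with amiodarone + HPbCD (adjusted p = 6.63e-05). LAMTOR2, at 133.26 to 160.53 TPM, had a difference of −0.05 ± 0.062 with amiodarone + HPbCD (95% interval −0.19 to 0.08). LAMTOR3 ranged from 17.28 to 26.24 TPM and LAMTOR4 from 154.92 to 216.47. Neither passed, and LAMTOR4 overlaps C7orf43 on the opposite strand, at 11.22 to 18.24 TPM.

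The core mTORC1 genes lay within narrow ranges. MTOR, the kinase, ranged from 10.2 to 12.9 TPM over all 12 libraries, RPTOR, which binds the Rag pair, from 18.77 to 23.96, and MLST8, the third core subunit, from 51.31 to 63.58. None passed in any of the 4 comparisons. By unadjusted p under 0.05, RHEB was higher and RPTOR lower with amiodarone (−0.19 ± 0.065, adjusted p = 0.0904). At that threshold 1620 of all 13968 tested genes were higher and 1607 lower. With amiodarone + HPbCD against LB DMSO, MTOR differed by −0.09 ± 0.082 (95% interval −0.27 to 0.09) and RPTOR by −0.12 ± 0.065 (95% interval −0.26 to 0.02). MLST8 differed by 0.14 ± 0.057 in that comparison (95% interval 0.015 to 0.264, adjusted p = 0.113), was higher by unadjusted p, and passed without LB amiodarone + HPbCD 1 (adjusted p = 0.0428). RHEB, the GTPase that switches mTORC1 on at the lysosome, was the exception: its means were 127 ± 8.71, 138 ± 7.02, 164 ± 12.1 and 188 ± 13.8 TPM (SD, n = 3), and it rose by 0.44 ± 0.073 with amiodarone + HPbCD against LB DMSO (adjusted p = 0.00144). Its difference with amiodarone was 0.24 ± 0.073 (adjusted p = 0.0656). GENCODE 29 names 3 RHEB pseudogenes.

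The 5 members too low to test were tissue-restricted paralogs. ATP6V1G3 was at 0 in all 12 libraries, ATP6V1G2 ranged from 0.13 to 1.31 TPM, ATP6V0A4 from 0.38 to 1.02 and ATP6V1C2 from 0.5 to 0.91. ATP6V0D2, the d subunit known from osteoclasts and macrophages, was listed at 0 in each A549 DMSO library, and measured 0.19, 0.1 and 0.05 TPM in LB DMSO, 0.35, 0.44 and 0.27 in LB amiodarone and 1.39, 1.28 and 2.01 in LB amiodarone + HPbCD. The LB groups did not overlap, and ATP6V0D2 made up at most 2.43% of the summed ATP6V0D1 and ATP6V0D2 TPM in any library. In a fit with no filter its difference with amiodarone against LB DMSO was 0.28 and did not pass (adjusted p = 0.22). With amiodarone + HPbCD it was 1.19 against LB DMSO (adjusted p = 7.54e-05) and 0.91 against LB amiodarone (adjusted p = 0.00196). CD68, also a macrophage gene, rose in the same comparisons (1.62, adjusted p = 3.02e-07, and 1.20, adjusted p = 2.95e-05), with the other leukocyte markers at the sums given above.

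Other genes of the pathway were read from lists outside the 43. Of 25 tested genes of the CLEAR network, known targets of TFEB and its relatives that are not members, 19 rose and 0 fell in LB DMSO against A549 DMSO, without drug, with a median of 0.46. With amiodarone 17 rose and 0 fell, and with amiodarone + HPbCD against LB DMSO 19 rose and 0 fell, with medians of 0.32 and 0.44. Of all tested genes, 14.2%, 4.90% and 10.1% rose in the same order. By unadjusted p under 0.05, 20, 19 and 20 of the 25 were higher and 0 were lower. At that threshold 2554, 1620 and 2209 of all 13968 tested genes were higher and 3345, 1607 and 2241 lower. NEU1, the lysosomal sialidase, rose from a mean of 64.8 to 214 TPM with amiodarone (1.71, adjusted p = 5.88e-10). GPNMB, a glycoprotein of lysosomes and melanosomes, rose from 3.24 to 12.3 TPM (1.65, adjusted p = 4.52e-05). In these comparisons TFEB, TFE3 and MITF held 0 rises. On adding HPbCD 5 of the 25 rose and 0 fell (12 higher and 0 lower by unadjusted p), beside 2.71% and 1.36% of all tested genes (1320 and 1188 of 13968 by unadjusted p). Among the 5 were SQSTM1, an autophagy receptor, at 0.44 (adjusted p = 2.16e-05), and CTSB, cathepsin B, at 0.52 (adjusted p = 0.000607).

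Genes of the amino acid input, of RHEB and mTOR complex partners and of TFEB control are read here beside the shares of all tested genes. These were 4.90% higher and 3.72% lower with amiodarone and 10.1% and 7.81% with amiodarone + HPbCD against LB DMSO. By unadjusted p under 0.05, 1620 of all 13968 tested genes were higher and 1607 lower with amiodarone. With amiodarone + HPbCD against LB DMSO these counts were 2209 and 2241. Of 18 tested genes of the amino acid input to the Rag GTPases, which include the GATOR complexes and the amino acid sensors, 0 passed with amiodarone (2 higher and 2 lower by unadjusted p) and 0 with amiodarone + HPbCD against LB DMSO (1 and 3). In LB DMSO against A549 DMSO 3 of the 18 rose and 2 fell, beside 14.2% and 18.2% of all tested genes. Among those that rose, CASTOR1, the arginine sensor, went from 7.72 to 13.9 TPM (0.77, adjusted p = 0.000367). On adding HPbCD to amiodarone CASTOR1 fell (−0.55, adjusted p = 0.0259), and that call was lost in 6 of 22 alternatives. Of 13 tested partners of RHEB and the mTOR complexes, 2 rose with amiodarone, and 3 rose and 5 fell with amiodarone + HPbCD against LB DMSO, with medians of 0.05 and −0.14. In the latter DEPTOR, an mTOR inhibitor, fell from 3.803 to 1.94 TPM (−0.71, adjusted p = 0.00891) and ULK1, the autophagy kinase, from 39.96 to 27.4 TPM (−0.52, adjusted p = 0.0072). TBC1D7, a subunit of the tuberous sclerosis complex that inhibits RHEB, rose from 23.1 to 35.1 TPM (0.58, adjusted p = 0.000234). Of 11 tested genes of TFEB control, such as kinases, phosphatase subunits and export factors, 0 passed with amiodarone (2 higher and 1 lower by unadjusted p) and 2 fell with amiodarone + HPbCD against LB DMSO.

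The list of V-ATPase partners without a subunit symbol held 11 tested genes. Of these, 4 rose and 1 fell in LB DMSO against A549 DMSO, beside 14.2% and 18.2% of all tested genes, 0 passed with amiodarone (1 higher and 0 lower by unadjusted p), and 2 rose and 2 fell with amiodarone + HPbCD against LB DMSO, beside 10.1% and 7.81%. With amiodarone 4.90% of all tested genes rose and 3.72% fell (1620 and 1607 of 13968 by unadjusted p). NCOA7, which binds the pump, rose from 54.6 to 102 TPM between the cell lines (0.89, adjusted p = 5.89e-07) and fell from 102 to 77.8 TPM with amiodarone + HPbCD (−0.38, adjusted p = 0.00143). WDR7, a subunit of the Rabconnectin-3 complex that assembles the pump, rose from 4.11 to 7.02 TPM in that comparison (0.65, adjusted p = 0.00273). The difference between this list and the subunit genes was not tested.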

How the data were processed

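Stranded mRNA libraries from 12 samples were read as 100-base pairs, per the labels' protocols. The authors deposited 1 table of TPM per gene symbol; STAR 2.7.3a, RSEM 1.3.1 and GRCh38 come from the submitters' processing notes, and no annotation release or strand setting is given in the sources used here. This counting divides reads shared between copies by estimate, and TPM keeps no depth, so no count model or counting interval was used. Of 57189 rows, 37 hold no value. The 43 members and the lists were chosen with earlier results of these data known, so counts over them are descriptions.

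Values were taken as log2(TPM + 1), which understates changes of low genes, and 13968 genes, those averaging 1 TPM or more, were fitted with limma 3.58.1 (R 4.3.3), trend on, 4 groups in 1 model with 8 residual degrees of freedom. Two-sided p-values were Benjamini-Hochberg adjusted over all genes within each comparison, with a threshold of 0.05, and the fit was tested on simulated data. Positions and pseudogene names came from GENCODE 29. Any member could be named. Values in every library are given for TFEB, TFE3, MITF, FLCN, FNIP1, FNIP2, RRAGC and RRAGD, and for up to 6 members per comparison with the largest difference among those past the test with at least 5 TPM. From each other list up to 3 such genes per comparison could be named. Alternatives, tried 1 at a time, changed the pseudocount (0.1 or 5), the filter (none, or 5 TPM), the scaling (median of ratios, quantiles, or without mitochondrially encoded genes) or the model (no trend, a block for the replicate number, the 2 compared groups by themselves), or left out a library.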

Additional observations from a re-analysis of the deposited data

How the results depend on the processing

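Of 3332 member values recomputed over 22 alternatives, 3194 kept their direction and their side of the threshold, 116 lost a call, 22 gained one and 0 of the called ones changed sign. The number of members that rose ranged over leave-one-out fits from 12 to 16 in LB DMSO against A549 DMSO (16 in the reported fit), from 14 to 19 with amiodarone (18), from 2 to 9 with HPbCD added to amiodarone (6) and from 20 to 24 with amiodarone + HPbCD against LB DMSO (23). The number that fell ranged from 1 to 2 in LB DMSO against A549 DMSO, and was 1 after quantile normalization, where ATP6V0A2 was lost. With HPbCD added to amiodarone it ranged from 0 to 1 and was 0 with no filter, with a filter at 5 TPM and with only the 2 groups compared in the fit. Against LB DMSO it was 1 in every leave-one-out fit and 0 with the filter at 5 TPM. TFEB, the member that fell in both, has a mean under 5 TPM and is not tested under that filter; for the other settings the cause was not tested.

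Replicate numbers are shared between groups in the labels. Same-numbered libraries of different groups had correlations of their deviations from the group means between −0.065 and 0.212 (median 0.021, 18 pairs, 2 over 0.1). Differently numbered libraries had −0.128 to 0.085 (median −0.01, 36 pairs, 0 over 0.1). These correlations are small and cannot exclude a weak sharing by number, so a fit with a block for the number was also made. With the replicate block 16 members rose and 2 fell, 18 and 0, 6 and 1, and 23 and 1 in the 4 comparisons. The counts with amiodarone exchanged 1 gene: ATP6V1B2 did not pass (adjusted p = 0.0582) and ATP6V0A1 did (adjusted p = 0.0481). TPM gives no depth, so changes of members under about 5 TPM are the least precise.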
